A study of Mus musculus with 4 samples.

Results

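Epicardial mesothelial nuclei are the nuclei of the single cell layer that covers the outer surface of the heart. They were taken from single-nucleus RNA counts of mouse right ventricles by a rule on transcripts, counted as unique molecular identifiers (UMIs). A barcode was kept if it had at least 200 genes and under 10% of its UMIs from mitochondrial genes. A kept barcode was a member if Ryr2, a cardiomyocyte (CM) calcium channel, made up under 1% of its UMIs, if it had at least 3 UMIs summed over Wt1, Upk3b, Upk1b, Msln, Muc16 and Bnc1 with at least 2 of these 6 genes detected, and if it had at most 1 UMI summed over the endothelial gene Ptprb, the mural gene Pdgfrb and the macrophage gene Mrc1. The rule found 1117 members among 48428 kept barcodes of 53090 deposited ones.

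The study asked whether and how right ventricular volume overload (RVVO) restarts the proliferation of CMs in young mice. RVVO was made at postnatal day (P) 7 by a fistula between the abdominal aorta and the inferior vena cava, and the sham group had the same operation without the puncture. All groups were wild-type mice of the strain labelled C57/BL6J, collected at P21, with 2 sham and 2 RVVO libraries. The labels name no cyclosporine for these samples, a drug used elsewhere in the study, and the sources used here do not say whether a library is 1 mouse or a pool, so p-values measure only the spread between these libraries, which may be technical. Values over the libraries are given below in the order sham 1, sham 2, RVVO 1 and RVVO 2.

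The 2 groups differed in sex as well as in surgery. Xist, the RNA of the inactive X chromosome, had 1092 and 1241 CPM (UMIs per 1000000 UMIs of a sum) in the sham epicardial nuclei and 0 in both RVVO libraries. The Y-linked gene Uty had 0 in both sham libraries and 311 and 238 CPM in the RVVO libraries. Sex and surgery therefore cannot be told apart in any comparison below. The libraries held 55516713, 51010039, 64739206 and 63422784 UMIs in all, and pairs of libraries shared 28 to 70 deposited barcodes, none of them a member in both.

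The epicardium is a mesothelium, a flat epithelium joined by cell junctions and resting on a basement membrane. In the embryo some of its cells undergo epithelial-to-mesenchymal transition (EMT) and give rise to fibroblasts and mural cells, and the layer sends retinoic acid and growth factors to the muscle beneath it. Wt1 is a zinc finger transcription factor of this layer, and injury of the adult heart is known to bring back parts of the embryonic programme.

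The start of Upk3b shows the kind of sequence that lies ahead of a gene of the rule. Upk3b encodes a uroplakin, a membrane protein of urothelium and mesothelium, and its 250 bases before the RefSeq start (GRCm38.p6, chr5:136038246-136038495, plus strand) are printed with the letters CATTCC in capitals, the reverse complement of GGAATG, which are the letters bound by TEAD factors of the Hippo pathway.
Upk3b: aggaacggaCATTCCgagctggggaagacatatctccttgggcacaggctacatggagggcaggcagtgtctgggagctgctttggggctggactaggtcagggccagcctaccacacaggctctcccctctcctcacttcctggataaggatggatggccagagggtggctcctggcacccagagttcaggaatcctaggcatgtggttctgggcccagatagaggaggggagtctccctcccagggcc
These letters were found on either strand in 4 of the 21 genes that had a RefSeq promoter entry among the rule genes and the leading genes described below (19.0%: Upk3b, Slc39a8, Wdr17 and Il17re), against 14.4% of 27025 genes in the same table. The match is a description of these bases only.

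The 6 rule genes chose the members, so their levels are a description. Muc16, a very large membrane mucin that binds mesothelin, was the most abundant, at 1253, 1056, 1747 and 1058 CPM of the epicardial sums without further scaling. Wt1 followed at 721, 760.0, 602 and 709.7 CPM. The uroplakin Upk1b had 438, 418, 454 and 435 CPM and Upk3b 299, 421, 289 and 339 CPM. Msln, the surface protein mesothelin, had 244, 262, 242 and 213 CPM, and Bnc1, a zinc finger factor of epithelia, had 99.8, 115, 145 and 92.2 CPM. These levels are of 3′ tags and were not set per transcript length, so the order of the genes is an order of tags.

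Wt1 was the least exclusive of the 6. Endothelial nuclei, chosen by 5 endothelial markers, held Wt1 at 59.6, 69.9, 40.7 and 59.4 CPM, while their Bnc1 was at most 0.413 CPM. After each nucleus was thinned to 1000 UMIs, a Wt1 UMI was seen in 48.4%, 51.3%, 43.7% and 49.9% of epicardial nuclei and in 6.70%, 8.08%, 5.69% and 7.46% of endothelial nuclei. Muc16 was seen in 56.8%, 58.0%, 67.5% and 54.7% of epicardial nuclei and in 0.0946%, 0.578%, 0.454% and 0.265% of fibroblast nuclei. The part of free RNA and misplaced nuclei in the fibroblast values was not tested.

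The label was checked against 15 other epicardial genes that the rule did not use. Members held a mean of 4.76, 4.74, 4.76 and 4.98 of them, and at least 1 was detected in 96.8%, 96.7%, 92.9% and 96.6% of members. Fibroblast nuclei held a mean of 0.276 to 0.467 of the same genes and endothelial nuclei 0.147 to 0.360. Gpm6a, a neuronal and mesothelial membrane glycoprotein, was the most abundant at 2589.6, 2089, 2302 and 1656 CPM. Upk3bl was at 0 in every library and Slpi at 0 in sham 1.

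Members near the threshold carried fewer of these genes. The members with exactly 3 rule UMIs numbered 9, 36, 14 and 57, and they held a mean of 2.33, 2.67, 1.36 and 2.91 of the 15 genes. The nuclei just outside, with 2 rule UMIs and all other conditions met, numbered 16, 76, 19 and 73 and held a mean of 0.563, 1.12, 0.526 and 1.70. Among members 16.8%, 18.7%, 16.5% and 22.8% had only 2 of the 6 markers and 6.32%, 4.62%, 8.66% and 4.16% had all 6.

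The depth of the members was compared between libraries. The median member had 3384, 2947, 3804 and 3139 UMIs and 1879, 1678.5, 1988 and 1806 genes, and the epicardial sums held 360670, 1300062, 552998 and 1789467 UMIs. Sham 1 therefore had the thinnest sum and RVVO 2 the deepest. The limit on Ptprb, Pdgfrb and Mrc1 removed a further 50, 76, 103 and 188 nuclei, 34.5%, 16.3%, 44.8% and 27.1% of those that met the rest of the rule, with median depths of 8177, 5182.5, 16970 and 7608 UMIs. A doublet score marked 8.42%, 10.3%, 2.36% and 12.1% of the members, beside 10.4%, 11.7%, 6.60% and 10.1% of all kept barcodes. The share marked was fixed in advance at 0.8% for each 1000 kept barcodes, so it is not a measured rate of doublets.

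The share of epicardial nuclei did not separate the groups. It was 0.732% in sham 1 (95% Wilson interval 0.599 to 0.894), 2.68% in sham 2 (2.43 to 2.95), 1.54% in RVVO 1 (1.30 to 1.83) and 3.997% in RVVO 2 (3.67 to 4.35), intervals that cover counting error only. The mean was 1.70% ± 1.38 (SD, n = 2) in sham and 2.77% ± 1.74 (SD, n = 2) in RVVO, a difference of 1.06 percentage points with p = 0.6667 in a two-sided exact permutation test, where the smallest p that 2 against 2 libraries allow is 0.3333. Libraries of 1 group differed by more than the groups did, and without RVVO 2 the difference turned to -0.165 points. A share of nuclei also depends on how many other nuclei were recovered, and which part of the ventricular wall entered each preparation was not tested.

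**Figure D1:**
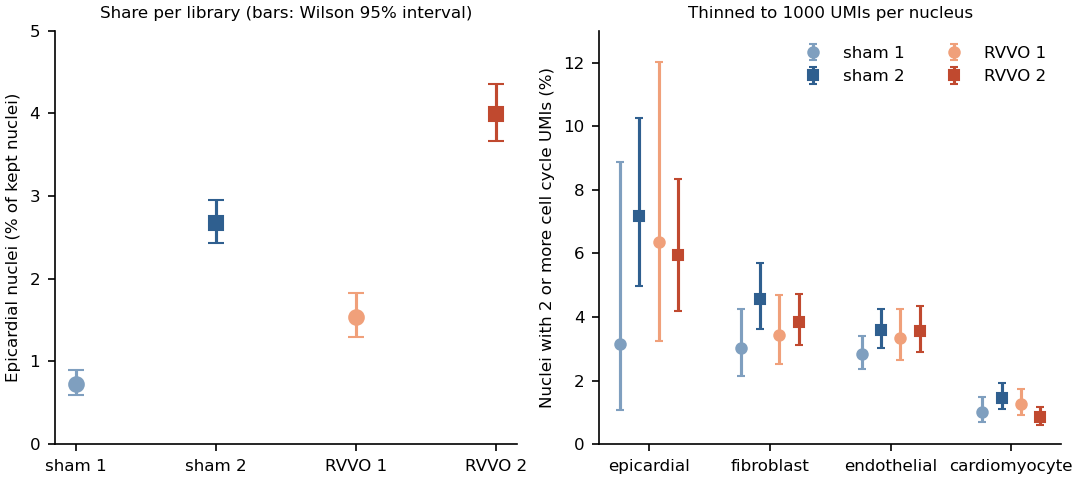
Left, share of kept nuclei (percent) that met the epicardial rule in each library, with 95% Wilson intervals: 0.732% and 2.68% in sham, 1.54% and 3.997% in RVVO. Right, share of nuclei (percent) with at least 2 UMIs of cell cycle genes after thinning to 1000 UMIs, by class and library; the epicardial points lie between 3.16% and 7.18%.

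Beyond the rule genes, genes such as Wdr17, Pcdh15, Pkhd1l1 and Efemp1 had far higher levels in epicardial nuclei than in the other kept nuclei of the same library. The 25 genes with the highest lowest-library ratio were taken among genes with at least 50 CPM in the epicardial sum of every library. This choice used the cells that the rule selected, so the ratios are a description with no test. Of the 25 genes, 23 have a symbol of their own and 2 are predicted or uncharacterised transcripts that are not named.

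Wdr17, a WD repeat protein, was the most abundant of them at 2975, 2928, 3215 and 3929 CPM, 99.6, 65.6, 62.0 and 37.6 times its level in the other nuclei. Pcdh15, a protocadherin best known from the hair cells of the inner ear, had 1170.0, 800.0, 1971 and 755 CPM. Pkhd1l1, a large membrane protein related to fibrocystin, had 1070.2, 1278, 1239 and 1429 CPM. All 3 were above 700 CPM in every library, in which fibroblast nuclei held at most 72.4 CPM of any of them.

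Tmem132d, a membrane protein of neural tissue, led the ranking with a ratio of 60.9 in its lowest library, at 103, 148, 74.1 and 168 CPM. Other adhesion and membrane genes of the set were Cdh3, which encodes P-cadherin, at 233, 154, 248 and 145 CPM, and Lrp2, the endocytic receptor megalin, at 149.7, 238, 177 and 368 CPM. Cdh8 is a further cadherin and Grin2a a glutamate receptor subunit, Slc26a3 and Slc39a8 are an anion exchanger and a metal ion transporter, and Scel encodes sciellin, a protein of cornified epithelia. Cdh8 varied most between libraries among these, at 485, 146, 407 and 174 CPM.

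Of the secreted and signalling genes in the set, Efemp1, which encodes the matrix glycoprotein fibulin-3, had 438, 645, 687 and 691 CPM. Rspo1, a secreted enhancer of Wnt signalling, had 249.5, 281, 239 and 263 CPM against at most 5.41 CPM in fibroblast nuclei. Bmpr1b, a type I BMP receptor, had 383, 526, 241 and 350.4 CPM, and Il17re is a receptor of the interleukin 17 family. Wwc1, also called Kibra, is an upstream member of the Hippo pathway, Stk26 a kinase and Myrf a membrane-bound transcription factor. Chst4, Dpysl5, Cyp2s1, Elavl2 and Dnajc6 completed the named genes.

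**Figure D2:**
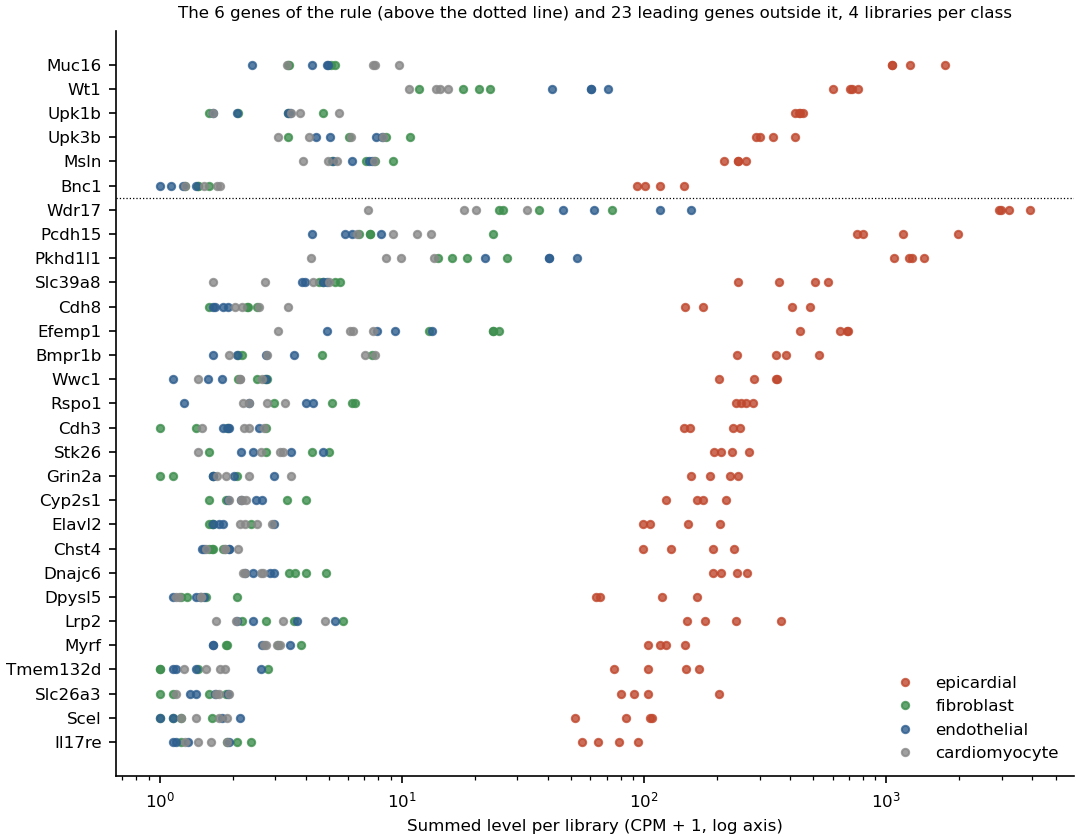
Levels (CPM + 1, log axis) of the 6 rule genes and 23 leading genes in epicardial, fibroblast, endothelial and CM nuclei of each library. Each point is 1 library; the epicardial points stand to the right of the other classes for every gene, Wt1 having the closest endothelial points at 40.7 to 69.9 CPM.

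Genes of the embryonic epicardial programme were present to different degrees. Bnc2, a paralogue of Bnc1, had 901, 1155, 1056 and 1012 CPM, against 162 to 196 CPM in fibroblast nuclei. Aldh1a2, the retinoic acid synthesising enzyme of the layer, had 211, 288, 212 and 254 CPM, against 38.6 to 87.7 CPM in fibroblast nuclei. Sema3d, a secreted guidance factor, had 718, 599, 803 and 609 CPM, against 50.5 to 65.3 CPM. Tcf21, which marks the fibroblast branch, was higher in fibroblast nuclei (24.8 to 32.3 CPM) than in epicardial nuclei (8.32, 4.62, 5.42 and 6.71 CPM), and the same held for Pdgfra, with 58.2, 42.3, 107 and 60.4 CPM in epicardial nuclei and 490.4 to 605 CPM in fibroblast nuclei. Tcf21 and Pdgfra were among the genes that chose the fibroblast nuclei, so their higher level there is a description.

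The comparison of RVVO with sham in epicardial nuclei asks which genes of this layer differ at P21 after an operation at P7. UMI counts were summed over the members of each library and tested with edgeR's quasi-likelihood test, with Benjamini-Hochberg adjustment over 9775 genes. The test called 10 genes (0.102%), 8 higher (0.0818%) and 2 lower (0.0205%) in RVVO. Of these, 6 were sex-linked: Xist and its antisense partner Tsix on the lower side, and Uty, Ddx3y, Eif2s3y and Kdm5d on the higher side. The other 4, Mpp6, Dfna5, Snx17 and Bst1, were autosomal and higher in RVVO. Xist lies within Tsix on the opposite strand, so Xist reads could have been counted for Tsix where the counting did not use strand. Levels in the following sentences are CPM of the epicardial sums on TMM-scaled library sizes.

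Mpp6 encodes a scaffold protein of the MAGUK family at cell membranes. It had 37.0 and 49.8 CPM in sham and 836 and 589.8 CPM in RVVO, from 13, 64, 440 and 1055 UMIs, so both RVVO libraries lay far above both sham libraries. The log2 fold change was 3.97 ± 0.31 (SE), with an adjusted p of 0.00236 in edgeR. In nuclei thinned to 1000 UMIs, an Mpp6 UMI was seen in 3.16% and 4.52% of sham members and in 41.3% and 42.4% of RVVO members. Thinned in the same way, it was seen in 3.22%, 3.85%, 8.53% and 12.8% of fibroblast nuclei, in 3.36%, 3.46%, 4.01% and 5.21% of endothelial nuclei and in 7.73%, 6.19%, 7.02% and 6.99% of CM nuclei.

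Dfna5, now called Gsdme, encodes gasdermin E, a protein that forms membrane pores after cleavage by caspase-3. It had 19.9 and 10.9 CPM in sham and 194 and 256 CPM in RVVO, with no overlap between the groups. The log2 fold change was 4.07 ± 0.35 (SE), with an adjusted p of 0.00347 in edgeR. Its UMIs numbered only 7 and 14 in the sham libraries, against 102 and 458 in RVVO.

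Mpp6 and Dfna5 lie beside each other. In the GRCm38 annotation Mpp6 spans chr6:50110241-50198939 on the plus strand and Dfna5 chr6:50188888-50263862 on the minus strand, so their 3′ ends overlap by 10052 bases, in which reads of either gene could have been counted for the other where the counting did not use strand. The sources used here do not say how strand was used. The table holds 2 starts for Mpp6, of which the upstream one is printed. The 250 bases before the other, chr6:50110610-50110859, hold 4 of the runs described next and 73.6% G and C. The 250 bases before the starts are printed because both genes were higher together, with the letters GGGCGG, bound by Sp factors, and the reverse complement CCGCCC in capitals.
Mpp6 (chr6:50109991-50110240, plus strand): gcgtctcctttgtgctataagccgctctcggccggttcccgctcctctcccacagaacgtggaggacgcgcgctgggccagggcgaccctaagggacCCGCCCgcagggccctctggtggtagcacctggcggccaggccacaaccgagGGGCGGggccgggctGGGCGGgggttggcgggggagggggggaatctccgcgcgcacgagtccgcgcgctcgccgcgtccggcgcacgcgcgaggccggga
Gsdme (chr6:50261770-50262019, minus strand): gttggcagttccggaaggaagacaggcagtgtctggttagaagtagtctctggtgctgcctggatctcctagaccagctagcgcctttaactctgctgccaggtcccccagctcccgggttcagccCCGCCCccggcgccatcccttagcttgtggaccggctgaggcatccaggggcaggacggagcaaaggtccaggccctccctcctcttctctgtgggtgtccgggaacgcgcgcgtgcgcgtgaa
The first stretch holds 3 such runs and 75.6% G and C, and the second holds 1 run and 64% G and C. The letters were present in 35.4% of the genes of the table.

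Bst1, an enzyme of the ADP-ribosyl cyclase family also known as CD157, had 11.4 and 15.6 CPM in sham and 190.0 and 138 CPM in RVVO. Both RVVO libraries were above both sham libraries, with a log2 fold change of 3.47 ± 0.32 (SE) and an adjusted p of 0.00475 in edgeR. It spans chr5:43818885-43843986 on the plus strand. Its paralogue Cd38, the main NAD-consuming enzyme of many tissues, starts 49.7 kb away on the same strand and had 28.5, 13.2, 269.7 and 116 CPM. Cd38 also showed no overlap between the groups, but its log2 fold change of 3.39 ± 0.52 (SE) had an adjusted p of 0.158 and did not pass in this fit. Across 21 alternative settings Cd38 passed in 9, among them DESeq2, with an adjusted p of 3.9e-06.

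Snx17, a sorting nexin that returns membrane receptors from endosomes to the surface, had 17.1 and 11.7 CPM in sham and 135 and 143 CPM in RVVO. The RVVO libraries were again apart from sham, with a log2 fold change of 3.39 ± 0.30 (SE) and an adjusted p of 0.00394 in edgeR. The gene spans chr5:31193227-31199143 on the plus strand and overlaps Eif2b4 and Zfp513 on the opposite strand by 204 and 163 bases.

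The calls of Mpp6, Dfna5 and Bst1 rested on the limit on other cells' genes. When nuclei with 2 or more UMIs over Ptprb, Pdgfrb and Mrc1 were also admitted, an alternative chosen after seeing the data, the log2 fold change of Mpp6 was 2.51 (adjusted p = 0.105 in edgeR), that of Dfna5 3.03 (0.604) and that of Bst1 2.52 (0.186). Snx17 kept its call at 3.31 (0.0222), and 7 genes were called in all.

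The 4 genes and Cd38 were also read in the other classes of the same libraries. Levels here are CPM without further scaling. Snx17 was called higher in RVVO in every class tested, with 19.3, 12.8, 123 and 139 CPM in fibroblast nuclei, 20.5, 15.5, 103 and 125 CPM in endothelial nuclei and 9.72, 8.88, 94.4 and 117 CPM in CM nuclei. Its log2 fold changes there were 3.03, 2.57 and 3.42, with adjusted p of 0.00797, 0.0074 and 0.00642 in edgeR.

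Mpp6 had 34.8, 38.5, 106 and 141 CPM in fibroblast nuclei, a log2 fold change of 1.74 with an adjusted p of 0.0517. In endothelial nuclei it had 36.9, 35.4, 48.8 and 66.3 CPM (log2 fold change 0.59), which did not pass. In CM nuclei it had 81.5, 66.9, 81.5 and 75.2 CPM, and the groups overlapped. Dfna5 had 15.1, 12.8, 41.7 and 66.4 CPM in fibroblast nuclei (adjusted p = 0.139), 11.2, 10.2, 17.2 and 29.3 CPM in endothelial nuclei (adjusted p = 0.279) and 34.6, 26.2, 27.3 and 35.0 CPM in CM nuclei. Both genes were thus higher in both RVVO libraries in fibroblast and endothelial nuclei, without a call, and overlapped between groups in CM nuclei. Bst1 was at or under 5.10 CPM in every library of the other classes, and there too both RVVO libraries were above both sham libraries. It had 1.19, 1.08, 2.63 and 4.58 CPM in fibroblast nuclei, 0.333, 1.03, 1.31 and 5.10 CPM in endothelial nuclei and 0.71, 0.0955, 1.505 and 2.19 CPM in CM nuclei, with log2 fold changes of 1.67, 2.20 and 2.14 that did not pass the test. Cd38 had 72.6, 66.1, 64.2 and 60.9 CPM in endothelial nuclei, with the RVVO libraries the lower ones there. It had 18.7, 12.8, 23.2 and 27.7 CPM in fibroblast nuclei and 6.99, 4.15, 8.22 and 8.05 CPM in CM nuclei, with the RVVO libraries the higher ones. Its log2 fold changes in fibroblast, endothelial and CM nuclei were 0.69, -0.23 and 0.46, and none passed the test.

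**Figure D3:**
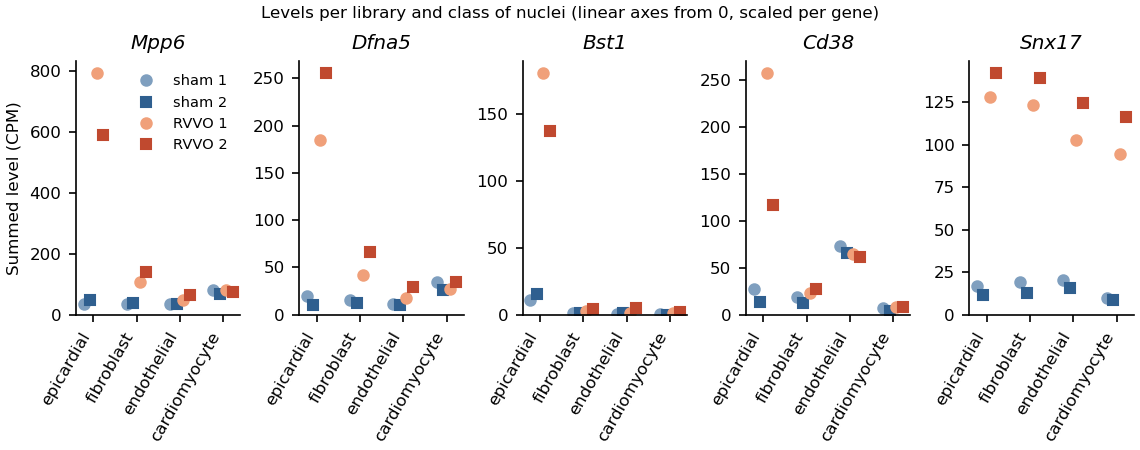
Levels (CPM) of Mpp6, Dfna5, Bst1, Cd38 and Snx17 in epicardial, fibroblast, endothelial and CM nuclei, 1 point per library. In RVVO, Mpp6, Dfna5, Bst1 and Cd38 are highest in epicardial nuclei, with Mpp6 at 796 and 589.6 CPM, whereas Snx17 is near 94.4 to 143 CPM in all 4 classes.

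The difference between classes was tested in a fit over 8 sums, with the class-by-group interaction as the term of interest. Epicardial and fibroblast sums of 1 library share their preparation, and library was a term of the fit. Of 13146 genes tested, edgeR called 0 (0%), with 505 (3.84%) at an unadjusted p under 0.05, and DESeq2 called 1, Mpp6, with an adjusted p of 0.0143. In edgeR the interaction of Mpp6 was 2.23 on the log2 scale (adjusted p = 0.0528), that of Dfna5 2.08 (0.0813), that of Cd38 2.48 (0.246), that of Bst1 1.79 (1) and that of Snx17 0.23 (1). With endothelial nuclei in place of fibroblasts, 4 of 14384 genes (0.0278%) were called. These were Mpp6 (3.33, adjusted p = 0.00032), Cd38 (3.51, 0.00151), Dfna5 (2.99, 0.00151) and Oasl2, an interferon-induced gene (1.41, 0.019).

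The genes around the 4 autosomal calls were looked up after the values were seen. Near Mpp6 and Dfna5, Osbpl3 had a log2 fold change of -0.01 and Cycs of 0.38. Near Bst1, Fbxl5, which overlaps it on the opposite strand, had 0.07. Near Snx17, 20 genes were tested, with log2 fold changes from -0.33 to 0.77, and none was called. Fgfbp1, which encodes a carrier of fibroblast growth factors, lies 162.9 kb from the start of Bst1 and had 0 UMIs in both sham libraries and 7 and 20 in RVVO. Against a floor of 3 counts over the group it was at least 6.38-fold higher in RVVO. Fgfbp1 passed the count filter only through its RVVO counts, so this bound is a description. It did not pass the adjusted test.

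**Figure D4:**
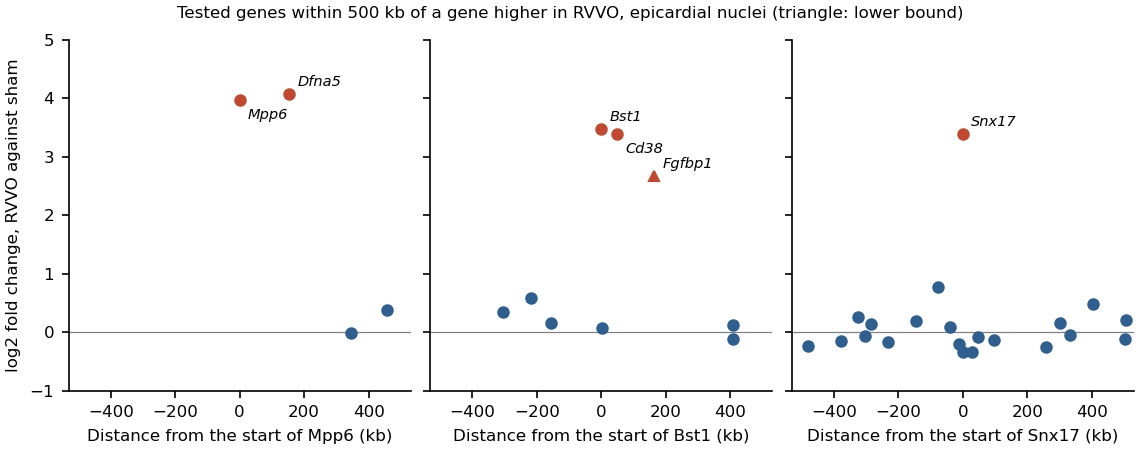
Log2 fold change of RVVO over sham in epicardial nuclei for genes within 500 kb of Mpp6, Bst1 and Snx17, against the distance between gene starts (kb). The called genes stand between 3.39 and 4.07, Cd38 lies at 3.39, and the genes around Snx17 lie between -0.33 and 0.77. Fgfbp1, which passed the count filter only through its RVVO counts, is drawn as a lower bound for description.

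Since under 5 autosomal genes were called, genes were also taken from the 8 with the lowest unadjusted p in each direction, without a call. From here on, levels of single genes in the members are on the TMM scale. List sums, and genes given as parts of a sum, are without further scaling. On the higher side, beside Cd38 and Fgfbp1, Vwf, the endothelial von Willebrand factor, had 11.4, 8.57, 36.1 and 49.8 CPM. The leukocyte marker Ptprc, the antigen CD45, had 2.85, 11.7, 30.4 and 37.5 CPM. Vwf and Ptprc are markers of other cells, and the endothelial marker sum of the members was 989.8, 628, 957 and 772 CPM, with the groups overlapping. That sum includes Ptprb, which the rule limited, so it was partly set by the choice of members. Tmeff2, a membrane protein with follistatin-like domains, had 25.6, 43.6, 79.8 and 129 CPM. Nrxn3, a neurexin, had 2 UMIs in sham and 45 in RVVO, a ratio of CPM of 15.95 with an exact counting interval of 4.17 to 136. P3h2, a collagen prolyl hydroxylase, and Slc15a2, a peptide transporter, were the remaining ones, with log2 fold changes of 2.80 and 1.70.

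On the lower side, 4 of the genes described belong to the response to interferon or to antigen processing. Bst2, the antiviral protein tetherin, had 103, 103, 30.4 and 39.7 CPM, so that its log2 fold change was -1.50 (adjusted p = 0.33). Gbp3, Xaf1 and the immunoproteasome subunit Psmb9 came out at -1.38, -1.15 and -1.65 on the log2 scale. None of these 4 genes passed the adjusted test, and since they were taken for their low p, the order of their libraries is a description. Hsph1, a heat shock protein, Ero1lb, an oxidase of the endoplasmic reticulum, and Dnah6, a ciliary dynein, had log2 fold changes of -1.52, -1.37 and -1.82.

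The interferon response list was read as a whole. Of its 22 genes 20 were tested, and 0 passed the adjusted test in edgeR or in DESeq2. At an unadjusted p under 0.05, 11 were lower and 0 higher, where 1.29% of all genes tested were lower. In 16 genes both RVVO libraries were below both sham libraries, against 15.2% of all genes. The median log2 fold change was -1.04, beside 0.01 for all genes tested, with members between -1.62 and 0.36, and leaving out 1 library at a time moved the median between -0.77 and -1.27. Stat2, a transcription factor downstream of interferon receptors, had 225, 195, 58.9 and 139.8 CPM. The summed level of the list, without further scaling, was 2398, 2436, 1233 and 2216 CPM, in which RVVO 2 stood near the sham libraries. In fibroblast nuclei the sum was 2184, 1992, 868 and 1603 CPM and in endothelial nuclei 3937, 3502, 1558 and 2361 CPM, with both RVVO libraries below both sham libraries, as in epicardial nuclei. In CM nuclei it was 1223, 751, 373 and 783 CPM, and the groups overlapped. Oasl2, the most abundant member in every library but RVVO 2, had 408, 365, 315 and 335 CPM on the TMM scale, a smaller difference. The class I antigen presentation genes H2-K1 and B2m, also on the list, had 199, 346, 186 and 515 CPM and 251, 276, 142 and 309 CPM, with overlapping groups.

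Bst2 had negative log2 fold changes in the other classes too, and the one in endothelial nuclei passed the test. The log2 fold change was -1.57 in fibroblast nuclei, -1.89 in endothelial nuclei (adjusted p = 0.0186 in edgeR) and -1.70 in CM nuclei. The difference in its response between epicardial and fibroblast nuclei did not pass the test.

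No member of the gene lists was called, whether of epicardial functions, of general cell functions or of markers of other cells. Over 23 lists with 400 genes, the rule genes and the sex-linked genes left out, 285 genes were tested and 0 called by edgeR or DESeq2. In edgeR 22 of them had an unadjusted p under 0.05, where 2.87% of all genes tested did, 1.59% on the higher side. Of these 22 genes, 11 were the interferon genes described above, all lower, and others, such as Vwf and Ptprc, were markers of other cells. The 22 are therefore not spread evenly over the lists. Members named below for an unadjusted p under 0.05 were named after their values were seen, as was Tbx18. The 15 other epicardial genes, 13 of them tested, lay at a median of -0.10 on the log2 scale, and at 0.15 without sham 2. The transcription factor list lay at 0.16 over 13 tested genes, and at 0.08 without sham 1 or without RVVO 1. Gata4 and Gata6, cardiac zinc finger factors, had 251, 223, 336 and 250.4 CPM and 234, 219, 236 and 243 CPM. Tbx18, a T-box factor of the epicardium, had 117, 115, 131 and 130.3 CPM.

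For retinoic acid, 12 of 21 genes were tested and the median was -0.19, and -0.02 without RVVO 2. Aldh1a2 had 217, 291, 222 and 254 CPM on the TMM scale and Aldh1a1, a related dehydrogenase, 208, 187, 194 and 152 CPM, both with overlapping groups. For EMT, 10 of 20 genes were tested and the median was 0.10, and 0.39 without sham 2. Zeb1 and Zeb2, repressors of epithelial genes, had 589.9, 544, 762 and 484 CPM and 148, 209.5, 220.3 and 302 CPM. For junctions and polarity, 22 of 26 genes were tested and the median was 0.05, which was -0.004 without sham 1 and 0.13 without sham 2. Pard3b, a polarity protein, had 775, 878, 936 and 803 CPM. No gene of these 3 lists had an unadjusted p under 0.05.

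Among secreted factors 29 of 34 genes were tested, with a median of 0.05 that was -0.32 without RVVO 2. Slit3, a guidance ligand, had 2371, 1874, 2891 and 1569 CPM, and Pdgfd, a ligand of PDGF receptor beta, 687, 563, 722 and 655 CPM, with overlapping groups. The only members with an unadjusted p under 0.05 were Ptn, the growth factor pleiotrophin, with 2.85, 3.89, 19.0 and 11.7 CPM, and Sema3a, with 39.9, 54.5, 101 and 76.0 CPM. Among 26 tested receptors the only such gene was Notch1, with 11.4, 13.2, 24.7 and 26.3 CPM, so that its log2 fold change was 1.01. Igf1r and Fgfr2, growth factor receptors, had log2 fold changes of -0.20 and 0.08.

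All 27 matrix genes were tested, with none at an unadjusted p under 0.05. Their median of 0.12 was 0.43 without sham 2 and 0.06 without RVVO 2. Col3a1 had 701, 1740.0, 1147 and 1783 CPM and Fn1, fibronectin, 108, 466, 93.1 and 412 CPM, and in both the second library of each group was the higher one. C3, the central complement component, showed the same order with 145, 415, 275 and 657 CPM. The complement list had a median of 0.05 over 11 tested genes, which was 1.09 without sham 2, 0.60 without RVVO 1 and -0.54 without RVVO 2, so that no direction can be read from it. The numbers of members in those second libraries, 390 and 505, were also the larger ones, and the part of this difference between libraries was not tested.

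In the Hippo list 21 of 22 genes were tested, with a median of 0.02 that lay between -0.10 and 0.04 when 1 library was left out. Tead1, the most abundant TEAD factor, had 855, 849, 652 and 657 CPM, so that its log2 fold change was -0.38 with an unadjusted p of 0.113. Ankrd1, a target gene of the pathway that CMs also express, had 22.8, 36.6, 32.3 and 101 CPM, and its value in RVVO rested on RVVO 2. The immediate early genes had a median of 0.00 over 16 tested genes, which was 0.30 without sham 2, 0.29 without RVVO 1 and -0.36 without RVVO 2, with Fosl2 at 82.6, 82.6, 74.1 and 79.9 CPM. Nuclear genes of mitochondrial respiration had a median of 0.09 over 25 genes, which was 0.46 without sham 1 and -0.24 without sham 2.

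**Figure D5:**
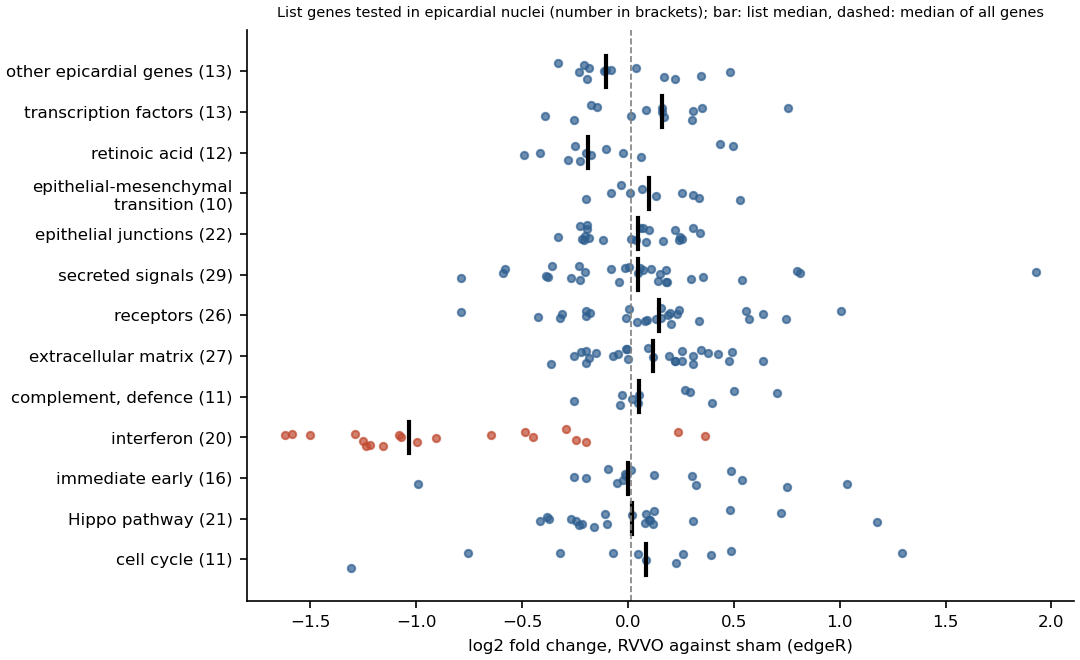
Log2 fold change of RVVO over sham in epicardial nuclei for the tested members of 13 gene lists, 1 point per gene, with the list median as a bar. The interferon list lies lowest with a median of -1.04, and the other medians lie between -0.19 and 0.16.

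Markers of other cells were present in the members, those of CMs at the highest level. The CM, endothelial, mural and macrophage lists include Ryr2, Ptprb, Pdgfrb and Mrc1, in that order, which the rule limited in the members. Their sums, and their medians where these genes were tested, were therefore partly set by the rule. CM markers summed to 20182, 14910.1, 16483 and 18275 CPM, led by Myh6 or Ttn, well above the 6 rule genes, which summed to 3055, 3032, 3479 and 2847 CPM. After thinning, a Myh6 UMI was seen in 98.9%, 97.6%, 99.2% and 99.6% of members and in 99.8%, 97.8%, 99.7% and 99.2% of fibroblast nuclei. The CM marker sum of fibroblast nuclei was 27170.1, 15283, 22346 and 23778 CPM and that of CM nuclei 61807 to 67427 CPM, and the list median in the members was -0.01, with 0.19 without sham 1 and -0.19 without sham 2. Fibroblast markers summed to 1564, 2414, 2441 and 3123 CPM. Among them Gsn, the actin-severing protein gelsolin, had 285, 330.2, 509 and 425 CPM on the TMM scale. The list median was 0.49 over 9 tested genes, and 0.34 to 0.47 when 1 library was left out. In fibroblast nuclei, which some of these markers chose, the sum was 4532, 5252.5, 5620 and 6314 CPM. The macrophage markers summed to 379.8, 326, 295 and 422 CPM. Of this Rbpj, which many cells express, made up 258, 203, 172 and 168 CPM, so that the other macrophage markers were highest in RVVO 2. Cd163 was at 0 in sham 1 and Adgre1 at 0 in sham 2. C1qb, a complement subunit, had 8.55, 10.9, 19.0 and 30.2 CPM on the TMM scale and Lyz2 had 8.55, 9.35, 13.3 and 53.7 CPM, where RVVO 2 stood apart. Erythroid markers summed to 491, 726, 2031 and 572 CPM, of which Hbb-bs made up 272, 405, 1074 and 334 CPM, with RVVO 1 the high library. Mural markers summed to 347, 211, 229.7 and 213 CPM, with a list median of -0.22 over 5 tested genes, which was 0.26 without sham 1 and -0.73 without sham 2. The list median of the macrophage markers was 0.23, and 0.91 without RVVO 1 and -0.36 without RVVO 2. That of the endothelial markers was 0.22, and 0.51 without sham 1 and -0.19 without sham 2. The lymphocyte markers summed to 341, 318, 524 and 355 CPM, nearly all from the transcription factor Ebf1, and had a median of 1.11 over 2 tested genes, Ebf1 and Ptprc, with Cd3e and Cd3g at 0 in every library. The glial markers summed to 36.0, 20.8, 50.6 and 13.97 CPM, led by Cdh19, with Sox10 and Foxd3 at 0 in every library. The part of these markers in the results above was not tested.

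Cell cycle transcripts were found in few members. After thinning to 1000 UMIs, 3 of 95, 27 of 376, 8 of 126 and 30 of 505 members had at least 2 UMIs of the 35 cell cycle genes, shares of 3.16%, 7.18%, 6.35% and 5.94%. The RVVO mean exceeded the sham mean by 0.976 percentage points, with p = 1 in the two-sided exact permutation test, and the groups overlapped. Fibroblast nuclei had 3.03%, 4.56%, 3.45% and 3.84%, endothelial nuclei 2.84%, 3.60%, 3.35% and 3.55% and CM nuclei 1.02%, 1.45%, 1.27% and 0.853%. The part of free RNA in these shares was not tested. Without thinning the epicardial shares were 25.3%, 23.3%, 34.6% and 27.5%, and both RVVO libraries were then above both sham libraries, a difference of 6.79 points with p = 0.3333 in the exact permutation test, the smallest it can give. Of the 35 genes 11 were tested, and Cenpf, a kinetochore protein, had 19.9, 22.6, 13.3 and 6.71 CPM, with a log2 fold change of -1.31 and an unadjusted p of 0.0282.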

How the data were processed

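The UMI counts per gene and barcode were deposited by the authors as filtered matrices of 4 single-nucleus libraries (10x 3′ kit, version 3), made with Cell Ranger, given as version 5.0.0 in the file headers and 3.0.1 in the submitters' processing notes, which also name STAR, Seurat 3.0.2 and GRCm38. No source used here states how strand and introns were treated. Of 27998 gene IDs 27645 matched the GENCODE M21 annotation used for positions.

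Members, gene lists and tests were chosen with earlier results of these data known. Fibroblast nuclei met the same filters with at least 3 UMIs over 6 fibroblast markers, and endothelial nuclei were chosen alike. CM nuclei had at least 1% of UMIs from Ryr2. Counts were summed per library and class and tested with edgeR 4.0.16 (quasi-likelihood, TMM, filterByExpr), with Benjamini-Hochberg adjustment and a threshold of 0.05 for adjusted p. Shares were compared by exact permutation over libraries. With 2 libraries a group, precision is set by the spread between libraries, which held 95 to 505 members each. Alternatives covered the members' rule, barcode filters, doublets (Scrublet), thinning, DESeq2 1.42.0, RLE and upper quartile scaling, count filters, the replicate number as a block, and 1 library left out at a time. Named genes were the 6 rule genes, the most abundant list members, the 25 leading genes by lowest-library ratio, the called genes and, with under 5 autosomal calls, the 8 genes of lowest p in each direction, 1 of which is not reported here. In data simulated for the epicardial comparison on 9775 genes, the test called 84% of genes given a log2 change of 2 and 8% of genes given a change of 1, and 8% of calls were false. For the interaction with fibroblast nuclei, simulated on 13146 genes, it called 67% and 13%, and 14% of calls were false. Both false shares were above the level of 0.05 set by the threshold.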

Additional observations from a re-analysis of the deposited data

How the results depend on the processing

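The difference in the share of epicardial nuclei was 0.374 to 2.03 percentage points under the alternative filters and denominators, and -0.165 to 2.29 when 1 library at a time was left out. The 10 genes called became 49 with no filter on low counts, 1 with at least 10 counts in every library, where only Mpp6 of the 10 was still tested, 4 without sex, mitochondrial and CM-marker genes, and 10 to 41 when 1 library was left out. The members of the gene lists called, 0 here, were 10 with no filter, 1 (Bst2) with every barcode thinned before the rule was applied, and 0 to 8 when 1 library was left out, the 8 without RVVO 2. The interaction with fibroblast nuclei, 0 here, gave 1 gene with DESeq2, 29 with no filter, 4 with endothelial nuclei in place of fibroblasts, and 1 to 51 when 1 library was left out. The difference in cell cycle share turned to -0.736 points with barcodes thinned before the rule and to -0.833 with no limit on Ptprb, Pdgfrb and Mrc1, and was -1.04 to 2.99 when 1 library was left out. It was 6.79 points without thinning and 1.84 with the highest doublet scores removed, where the groups did not overlap, 3.21 at 1 UMI and 2.56 at 2000 UMIs. The cause of the other changes was not tested. Samples of the 2 groups share only a replicate number. With that number as a replicate block, 58 genes and 10 list members were called, and deviations of same-numbered libraries had a correlation of 0.218 over 9775 genes. Admitting nuclei over the limit on other cells' genes, and keeping only barcodes with at least 2000 UMIs, were chosen after seeing the data.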
